A study of Mus musculus with 2 samples.

Results

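The checkpoint receptors of T cells, *Ctla4*, *Pdcd1*, *Lag3*, *Tigit*, *Havcr2*, *Btla*, *Cd160*, *Cd226*, *Cd96* and *Icos*, were followed by name through the spleen cells of mice allergic to ovalbumin (OVA). They are 10 of the 32285 genes in the count table, chosen by name. The cells came from wild-type C57BL/6 mice, for which the labels give an age of 8 weeks. As the spleens were taken on day 80, this is not the age at harvest. All mice had been sensitized to OVA on days 0 and 10. Mice then stayed untreated, received the Standard therapy (OVA in PBS on days 20, 22 and 24 and OVA in Alum on days 40 and 60), or received OVA coupled to a fusion protein against DCIR2 (DCIR2-Fp) on days 20, 22 and 24. On day 80 the splenocytes were taken, after an OVA challenge that the study's single-cell methods state for the Standard and DCIR2-Fp mice and its legends for the groups without exception, and were stimulated for 3 h with PMA and ionomycin. CD45+ CD11b- and CD45+ CD11b+ cells were then sorted, mixed in equal parts and frozen. They were labelled with hashtags, antibodies that carry a DNA tag for each sample, and measured in 1 multiplexed pool by droplet single-cell RNA sequencing. The sort sets the shares of the cell classes in the pool. The hashtags carry the numbers 9 to 12, which makes 4 tags for 3 conditions, and which tag belongs to which condition is not given in the sources used here. The therapies were therefore not compared, and the hashtags are given as samples without a group. They were not used as replicates in a test, and no p-value was computed.

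Checkpoint receptors are surface proteins that tune the response of a T cell after its antigen receptor has been engaged. CTLA-4 competes with the activating receptor CD28 for CD80 and CD86, PD-1 recruits phosphatases to the antigen receptor, LAG-3 binds MHC class II, and TIM-3, the product of *Havcr2*, is found on T cells and on myeloid cells. TIGIT and CD96 share ligands with the activating receptor CD226, BTLA and CD160 both bind HVEM, and ICOS is a costimulatory relative of CD28. Tregs carry CTLA-4, ICOS and TIGIT without fresh stimulation, whereas PD-1, LAG-3 and TIM-3 appear on T cells after activation. PMA and ionomycin act below the antigen receptor and switch on the transcription factors AP-1 and NFAT.

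The values are counts of unique molecular identifiers (UMIs), each of which stands for 1 captured RNA molecule. After the cell filter 16325 of 16829 barcodes remained, with a median of 6474 UMIs per cell. Cells were sorted into classes by the transcripts of lineage genes. A T cell needed at least 2 UMIs of *Cd3d*, *Cd3e*, *Cd3g* and *Trac* together and none of *Cd79a* or *Ms4a1*. The Treg class held 233 such cells with a *Foxp3* UMI, the CD4+ class 232 cells with *Cd4* and without *Foxp3*, and the CD8+ class 611 cells with *Cd8a* or *Cd8b1* and without *Cd4* or *Foxp3*. A further 1141 T cells had no UMI of any of these 4 genes and are called other T cells. The pool also held 4291 NK cells, 2809 B cells, 274 myeloid cells with at least 3 UMIs of *Lyz2* and *Csf1r* together, and 417 dendritic cells. The other 6317 of the 16325 cells kept fell in no class. Some genes outside these rules were read in the Treg and CD4+ classes. *Ikzf2* stood at 1234 UMIs per 1000000 UMIs of the class (CPM) in the Treg class and 253 CPM in the CD4+ class. *Il2ra* stood at 1596 and 588 CPM, and *Cd40lg*, a helper T cell gene, at 51.1 and 420 CPM. *Il2ra* was also above the CD4+ level in B cells (802 CPM), other T cells (701 CPM) and CD8+ T cells (674 CPM). Of the Treg class, 34.3% of cells had a *Cd4* UMI and 7.30% a *Cd8b1* UMI. Transcripts of NK cell genes were present in the T cell classes. There *Ncr1* was seen in 9.98% to 13.7% of cells, *Klre1* in 11.2% to 20.7% and *Gzma* in 24.0% to 29.5%. Whether they came from NK cells or from the T cells themselves was not tested. *Gzma* was also seen in 12.4% of the myeloid cells, which should lack it, and in 22.5% of the dendritic cells. The dendritic class rested mostly on *Zbtb46*, seen in 92.3% of its cells, against 17.5% for *Flt3*, 14.4% for *Clec9a* and 3.12% for *Xcr1*. *Zbtb46* was also seen in 37.8% of NK cells and 28.6% of B cells, which limits the levels given for dendritic cells. With the T cells that held an *Ncr1* or *Klre1* UMI left out, 18 receptor levels in the T cell classes moved past their counting interval and 22 did not. The receptors at least 2-fold lower in CD8+ than in CD4+ T cells then numbered 6 in place of 4, with *Tigit* and *Lag3* added, and those lower in NK than in CD8+ T cells 8 in place of 9, without *Havcr2*. The other counts of receptors between these classes stayed the same. The share of all genes past 2-fold was not computed without these T cells.

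All 10 receptors were detected, with between 789 UMIs for *Pdcd1* and 17130 UMIs for *Ctla4* in the cells kept. Across the 8 classes, *Ctla4* and *Icos* were highest in Tregs, *Tigit* in Tregs and next in NK cells, *Pdcd1*, *Lag3* and *Btla* in CD4+ T cells, *Cd160*, *Cd226* and *Cd96* in CD8+ T cells, and *Havcr2* in dendritic and myeloid cells. Each level below is given with its exact Poisson 95% interval, which covers counting error only. A lower level in a class cannot be told apart from fewer expressing cells in it unless a share of cells is given beside it.

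**Figure D1:**
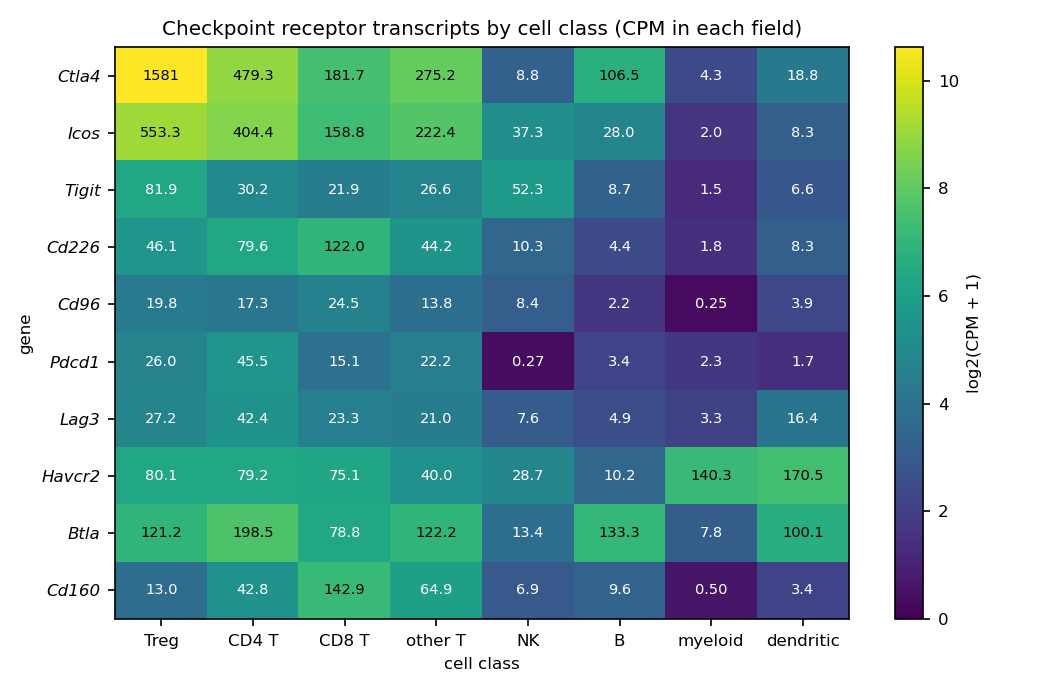
Level of each receptor (rows) in each cell class (columns) in CPM, printed in each field, with the colour on a log2(CPM + 1) scale. *Ctla4* reached 1581 CPM in Tregs and 4.25 CPM in myeloid cells, while *Havcr2* was highest in dendritic cells.

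The stretches of 250 bases before the annotated start were looked up in the RefSeq promoters of GRCm38.p6 for the receptors other than *Cd226*, which was left out. At least 1 was found for 7 receptors, with 2 for *Cd160*, which makes 8 promoters. None was found for *Lag3* or *Icos*. Shown are 4 receptors that the CD8+ T cells carried together, as described further on. Capitals mark the NFAT core GGAAA and the AP-1 motif TGANTCA, each searched on both strands, the letters that the factors switched on by the stimulation are known to bind. *Ctla4* lies on the plus strand at chr1:60908775-60909024, *Pdcd1* on the minus strand at chr1:94052554-94052803, *Tigit* on the minus strand at chr16:43664185-43664434, and *Havcr2* on the plus strand at chr11:46454681-46454930.
Ctla4: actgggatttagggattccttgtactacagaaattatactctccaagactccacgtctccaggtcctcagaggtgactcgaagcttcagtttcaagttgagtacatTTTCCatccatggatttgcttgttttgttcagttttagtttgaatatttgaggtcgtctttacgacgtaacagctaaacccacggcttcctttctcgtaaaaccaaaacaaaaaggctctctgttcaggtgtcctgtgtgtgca
Pdcd1: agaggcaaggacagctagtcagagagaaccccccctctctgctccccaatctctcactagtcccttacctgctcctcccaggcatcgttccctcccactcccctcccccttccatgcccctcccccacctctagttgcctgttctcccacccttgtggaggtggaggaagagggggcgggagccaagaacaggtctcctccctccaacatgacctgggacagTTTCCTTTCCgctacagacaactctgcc
Tigit: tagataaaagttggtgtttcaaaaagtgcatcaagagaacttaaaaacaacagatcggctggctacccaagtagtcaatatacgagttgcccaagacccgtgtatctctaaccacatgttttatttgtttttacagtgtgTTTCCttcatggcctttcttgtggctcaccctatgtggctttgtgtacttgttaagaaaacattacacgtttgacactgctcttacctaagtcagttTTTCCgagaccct
Havcr2: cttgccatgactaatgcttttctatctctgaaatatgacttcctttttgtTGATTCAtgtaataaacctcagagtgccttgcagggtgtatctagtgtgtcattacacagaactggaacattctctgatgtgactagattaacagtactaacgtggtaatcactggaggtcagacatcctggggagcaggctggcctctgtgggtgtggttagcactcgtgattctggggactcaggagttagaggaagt
The NFAT core was found in 5 of these 8 promoters, against 55.6% of 32851 promoters of the same length, and the AP-1 motif in 1 of 8, against 6.75%. These matches describe the letters only. The library reads the 3′ ends of transcripts and holds no measurement of these promoters.

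*Ctla4*, the inhibitory competitor of CD28, lies on chromosome 1 (60887000 to 60915832, GRCm38) and fell stepwise over the T cell classes. It stood at 1581 CPM (1539 to 1624) in Tregs, 479 CPM (453 to 507) in CD4+ T cells, 275 CPM (265 to 286) in other T cells and 182 CPM (172 to 192) in CD8+ T cells. No intervals of neighbouring classes overlapped, which of the 10 receptors held only for *Ctla4* and *Icos*. Such intervals narrow with more UMIs, and the share of all genes without overlap was not computed. To compare cells of unlike depth, every cell was also reduced at random to 2000 UMIs (thinned). In these thinned cells, 81.0% of Tregs (75.4 to 85.9) had a *Ctla4* UMI, against 37.4% of CD4+ T cells, 14.8% of CD8+ T cells and 1.12% of myeloid cells, which should lack the transcript. Without thinning, the share was 96.1% in Tregs at a median depth of 11642 UMIs and 3.65% in myeloid cells at 10814.5 UMIs. In CD8+ T cells the transcript was concentrated, and the richest 5% of cells held 60.6% of its UMIs, against 18.2% in Tregs.

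*Icos*, which lies 62.1 kb downstream of *Ctla4* on the same strand, followed the same order over the T cells at a shallower slope. It stood at 553 CPM (529 to 579) in Tregs, 404 CPM (380 to 430) in CD4+ T cells, 222 CPM (213 to 232) in other T cells and 159 CPM (150 to 168) in CD8+ T cells. In NK cells it stood at 37.3 CPM. Its thinned share fell from 56.5% of Tregs to 44.8% of CD4+ T cells and 22.8% of CD8+ T cells, with 0.372% of myeloid cells.

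The receptors that share ligands on antigen-presenting cells did not share a pattern. *Tigit*, the inhibitory member of the group, stood at 81.9 CPM (72.5 to 92.1) in Tregs and 52.3 CPM (49.7 to 55.0) in NK cells, above 30.2 CPM in CD4+, 26.6 CPM in other and 21.9 CPM in CD8+ T cells. The intervals of the last 3 classes overlapped from neighbour to neighbour. *Cd226*, their activating counterpart, was highest in CD8+ T cells at 122 CPM (114 to 130), followed by 79.6 CPM (69.0 to 91.4) in CD4+ T cells and 46.1 CPM (39.2 to 53.9) in Tregs. Within hashtags, *Cd226* was higher in CD8+ than in CD4+ T cells for 2 and lower for the other 2. *Cd96* was low throughout the T cells, between 13.8 and 24.5 CPM, and none of the 4 T cell classes stood clear of its neighbour. In NK cells, *Cd226* and *Cd96* stood at 10.3 and 8.38 CPM.

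*Pdcd1*, which encodes PD-1, and *Lag3* were both low and led by CD4+ T cells. *Pdcd1* stood at 45.5 CPM (37.6 to 54.6) in CD4+ T cells, 26.0 CPM (20.9 to 32.1) in Tregs and 15.1 CPM (12.5 to 18.2) in CD8+ T cells. NK cells held 8 *Pdcd1* UMIs in 4291 cells, or 0.275 CPM (0.119 to 0.541). *Lag3* stood at 42.4 CPM (34.8 to 51.1) in CD4+ T cells, and the intervals of Tregs at 27.2 CPM, CD8+ T cells at 23.3 CPM, other T cells at 21.0 CPM and dendritic cells at 16.4 CPM overlapped in turn.

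*Havcr2* was the only one of the 10 receptors whose highest levels were outside the lymphocytes, at 171 CPM (158 to 184) in dendritic cells and 140 CPM (129 to 152) in myeloid cells. Dendritic cells with a UMI of *Xcr1* or *Clec9a*, genes of cDC1, held 246 CPM (216 to 278, 67 cells), and the other dendritic cells 146 CPM (133 to 160, 350 cells). Tregs, CD4+ and CD8+ T cells stood at 80.1, 79.2 and 75.1 CPM with overlapping intervals. In the thinned cells, 28.3% of myeloid cells, 14.3% of dendritic cells and 11.3% of CD8+ T cells had a *Havcr2* UMI, against 0.819% of B cells.

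*Btla* and *Cd160*, the receptors for HVEM, differed in reach. *Btla* stood at 199 CPM (182 to 217) in CD4+ T cells, 133 CPM (130 to 137) in B cells, 122 CPM in other T cells, 121 CPM in Tregs, 100.1 CPM in dendritic cells and 78.8 CPM in CD8+ T cells. B cells held 57.0% of its UMIs over the 8 classes. These classes held 8377 of the 13969 *Btla* UMIs in the cells kept, and the rest was in cells of no class. *Cd160* stood at 143 CPM (135 to 152) in CD8+ T cells, 64.9 CPM in other T cells, 42.8 CPM (35.1 to 51.6) in CD4+ T cells and 13.0 CPM (9.45 to 17.5) in Tregs. The richest cell held 24 of the 109 *Cd160* UMIs of the CD4+ class, and the level without it was 33.6 CPM.

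B cells also carried *Ctla4*, at 107 CPM (103 to 110). Of these cells, 374 had a UMI of *Cd3d*, *Cd3e*, *Cd3g* or *Trac*, with a median of 19515 UMIs per cell and 303 CPM of *Ctla4*. The 2435 B cells without such a UMI held 47.4 CPM (44.8 to 50.0), with *Icos* at 2.58 CPM and *Cd160* at 1.42 CPM. Within these 2435 cells, *Ctla4* stood at 103 CPM (95.3 to 111) in 460 cells with an *Il10* UMI and at 29.4 CPM (27.1 to 31.8) in 1975 cells without. *Btla* went the other way, at 82.2 CPM (75.5 to 89.3) and 156 CPM (150 to 161). *Ctla4* stood at 180 CPM (163 to 198) in 130 cells with *Jchain*, a gene of antibody-secreting cells, and at 35.5 CPM in the other 2305 cells.

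Comparisons between classes asked how the receptors are placed among all genes. Genes with at least 20 UMIs over both classes entered, and a gene was counted at a CPM ratio of at least 2. In Tregs against CD4+ T cells, 2 receptors were higher and 1 lower, where 6.54% of 10037 genes were higher and 3.74% lower. *Ctla4* was 3.30-fold (3.10 to 3.51) and *Tigit* 2.71-fold (2.10 to 3.54) higher, and *Cd160* was 3.29-fold (2.30 to 4.78) lower. *Pdcd1*, *Cd226*, *Btla* and *Lag3* were between 1.56-fold and 1.75-fold lower, so that 5 receptors were lower at a fold of 1.5, where 8.1% of genes were, and *Havcr2* and *Cd96* were within their counting intervals of a ratio of 1. The median log2 ratio of the receptors was -0.31, against 0.089 for all genes.

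In CD8+ against CD4+ T cells, 1 receptor was higher and 4 were lower, where 3.96% of 10674 genes were higher and 8.49% lower. *Cd160* was 3.34-fold (2.74 to 4.11) higher. *Pdcd1* was 3.01-fold (2.30 to 3.93), *Ctla4* 2.64-fold (2.44 to 2.85), *Icos* 2.55-fold (2.34 to 2.77) and *Btla* 2.52-fold (2.23 to 2.84) lower. *Cd226* was 1.53-fold (1.32 to 1.79) higher over all cells, with a mixed direction within hashtags, so that 2 receptors were higher at a fold of 1.5, where 8.96% of genes were, and the *Havcr2* ratio of 0.948 had an interval of 0.805 to 1.12. Without the T cells that held an *Ncr1* or *Klre1* UMI, the *Havcr2* log2 ratio was -0.76, at 51.4 CPM in CD8+ and 86.9 CPM in CD4+ T cells.

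In NK cells against CD8+ T cells, 9 of the 10 receptors were lower and *Tigit* was higher, where 7.51% of 13444 genes were lower and 18.7% higher. *Tigit* was 2.38-fold (2.03 to 2.82) higher. *Pdcd1* was 55.0-fold lower with a wide interval (27.0 to 131) from its 8 UMIs. *Ctla4* and *Cd160* were each 20.6-fold and *Cd226* 11.9-fold lower, and the other 5 were between 2.61-fold and 5.89-fold lower. The median log2 ratio of the receptors was -2.32, against 0.22 for all genes. Only 21.5% of NK cells had a hashtag called, against 79.5% of CD8+ T cells.

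The hashtags give the spread of these levels over the labelled samples, each with its own cells. In Tregs, *Ctla4* stood at 1220 CPM for hashtag 9, 1533 CPM for hashtag 10, 942 CPM for hashtag 11 and 1834 CPM for hashtag 12. In CD4+ T cells it stood at 662, 508, 179 and 468 CPM in the same order, and in CD8+ T cells at 49.3, 207, 75.5 and 256 CPM. Hashtag 11 was the lowest in Tregs and in CD4+ T cells, and Tregs were above CD4+ T cells for all 4 hashtags without overlap. *Tigit* stood at 88.8, 98.9, 52.7 and 62.0 CPM in Tregs and at 6.24, 27.6, 24.1 and 28.9 CPM in CD4+ T cells, again without overlap. The CD4+ value of hashtag 9 rests on 1 UMI in 11 cells. *Cd160* stood at 202, 175, 156 and 98.6 CPM in CD8+ T cells and at 31.2, 67.5, 22.9 and 37.5 CPM in CD4+ T cells, so that all CD8+ values lay above all CD4+ values.

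*Pdcd1*, *Btla* and *Icos* were also lower in CD8+ than in CD4+ T cells without overlap of the hashtags. *Ctla4* was lower in CD8+ T cells within each hashtag, but the ranges overlapped. In Tregs against CD4+ T cells the direction within hashtags was mixed for *Pdcd1*, which was higher for 2 and lower for 2, *Cd160* was lower for 3 of 4, and *Btla* was lower for all 4 without overlap. *Cd226* in CD8+ T cells was between 72.2 and 82.6 CPM for 3 hashtags and 258 CPM for hashtag 12, against 6.24, 101, 74.5 and 179 CPM for hashtags 9 to 12 in CD4+ T cells. In NK against CD8+ T cells, 8 receptors did not overlap, and *Havcr2* and *Btla* did. The share of all genes whose hashtag values do not overlap was not computed for any of these comparisons.

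**Figure D2:**
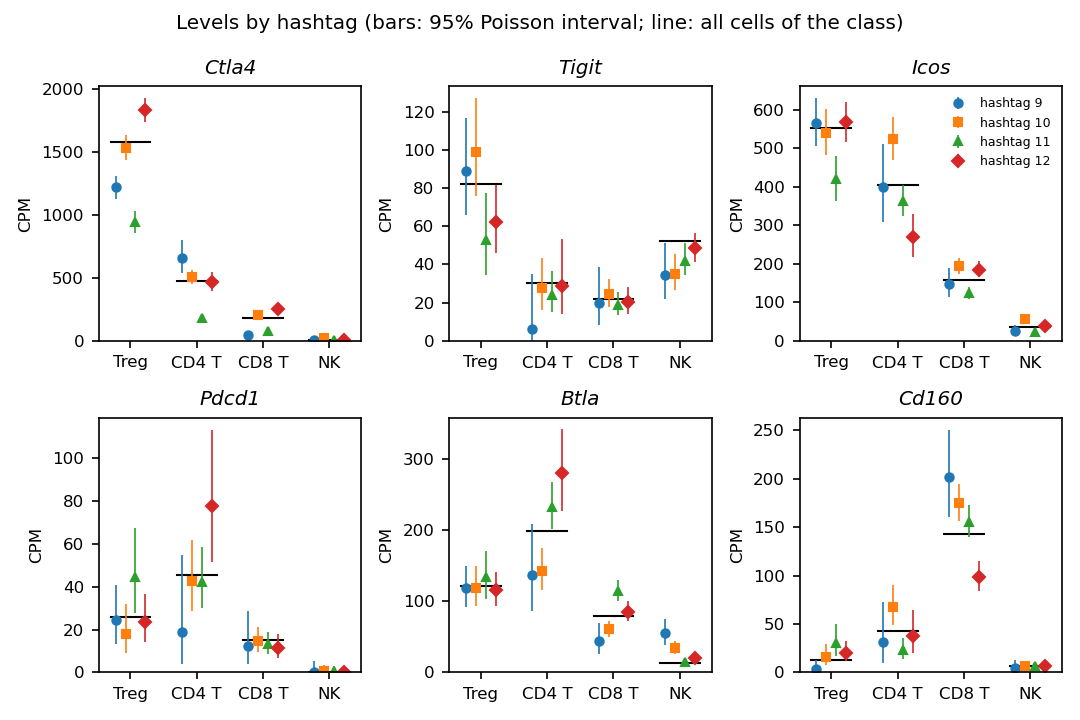
Level in CPM (vertical axis, from 0) of 6 receptors in 4 cell classes for each hashtag, with 95% Poisson intervals as bars and the level over all cells of the class, also those without a hashtag, as a line. *Ctla4* and *Tigit* in Tregs lie above all CD4+ values, and *Cd160* in CD8+ T cells lies between 98.6 and 202 CPM, above all CD4+ values.

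Tregs carried the most receptors per cell. In cells thinned to 2000 UMIs, 2 or more of the 10 receptors had a UMI in 70.3% of Tregs (63.9 to 76.1, exact Clopper-Pearson 95% interval), 49.6% of CD4+ T cells (42.9 to 56.2), 31.3% of CD8+ T cells (27.7 to 35.2) and 27.0% of other T cells (24.4 to 29.7). The share was 3.00% in NK cells, 3.92% in B cells and 4.77% in dendritic cells. None of 269 thinned myeloid cells had 2 receptors. At full depth the shares were 97.9%, 83.2% and 80.4% in Tregs, CD4+ and CD8+ T cells, and 7.30% in myeloid cells (20 of 274).

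**Figure D3:**
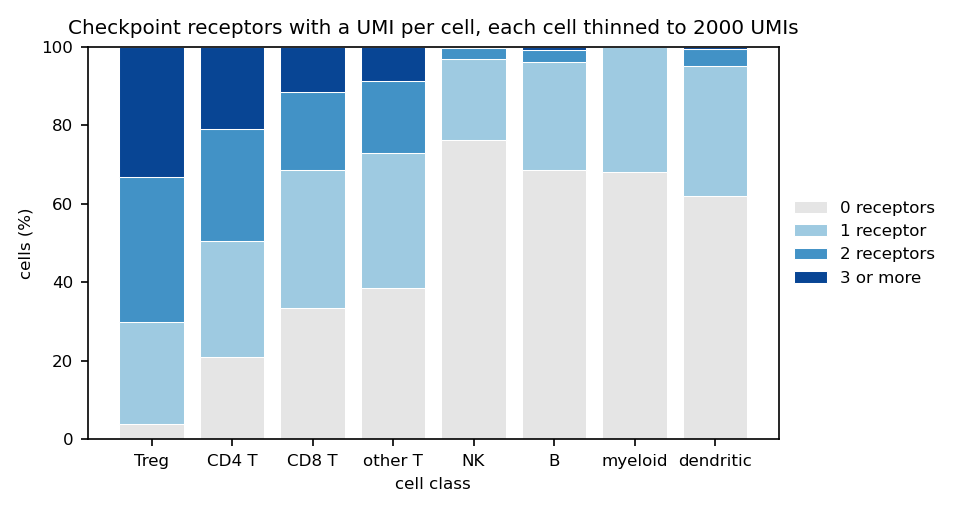
Share of cells in percent (vertical axis) with 0, 1, 2 or 3 or more of the 10 receptors in each cell class, with each cell thinned to 2000 UMIs. 3 or more were seen in 33.2% of Tregs, 20.9% of CD4+ T cells and 11.5% of CD8+ T cells.

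The pairwise view asked which receptors were carried by the same cells. For each of the 45 pairs, the number of cells with both transcripts was set against the number expected from their shares among cells of like depth, with the class cut into 5 equal groups by depth. In CD8+ T cells, 10 of 45 pairs were found together at 1.5 or more times the expected number, where 0.45% of all pairs of 5120 genes detected in a like share of CD8+ T cells were. These 10 pairs were all the pairs that *Ctla4*, *Pdcd1*, *Lag3*, *Tigit* and *Havcr2* can form, a group named from these values. *Pdcd1* and *Lag3* were together in 34 cells where 11 were expected, a ratio of 3.09 (2.14 to 4.32), and 51.5% of *Pdcd1*+ cells were *Lag3*+. *Pdcd1* and *Havcr2* were together in 40 cells (ratio 2.81, 2.01 to 3.82), and *Lag3* and *Havcr2* in 49 cells (2.26, 1.67 to 2.98). The other 7 ratios lay between 1.58 and 2.00. The remaining 35 pairs, which hold *Cd96*, *Icos*, *Btla*, *Cd160* or *Cd226*, had ratios of at least 0.709 and under 1.5. *Pdcd1* was with *Btla* at 0.73 and with *Cd226* at 0.71 of the expected number, with intervals that held 1. With the expected number taken within hashtags as well, 9 pairs passed, and *Pdcd1* and *Lag3* kept a ratio of 2.79.

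In CD4+ T cells 3 of 44 pairs with at least 5 expected cells passed, against 1.52% of gene pairs. These were *Pdcd1* and *Lag3* (28 cells, 1.68, 1.11 to 2.42), *Tigit* and *Havcr2*, and *Havcr2* and *Cd96*, and the intervals of the last 2 pairs held 1. *Tigit* and *Btla* were together less often than expected, in 17 cells where 29.1 were expected (0.584, 0.340 to 0.94). In Tregs only *Cd226* and *Cd96* of 41 pairs passed, against 1.04% of gene pairs (13 cells, 1.54, 0.819 to 2.63), and *Pdcd1* and *Lag3* stood near 1.3. As 96.1% of Tregs had *Ctla4*, its ratios there cannot depart far from 1. The difference in ratio between the classes was not tested.

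In other T cells 9 of 45 pairs passed, against 0.573% of gene pairs, and 6 of these 9 are among the 10 of the CD8+ T cells. *Lag3* and *Havcr2* led with 49 cells (2.42, 1.79 to 3.20). In NK cells 6 of 36 pairs passed, against 7.51% of gene pairs, led by *Lag3* and *Cd160* with 20 cells (2.27, lower bound 1.39). Pairs at 1/1.5 or less of the expected number were 0 in CD8+ T cells, 1 in CD4+ T cells, 3 in Tregs, 1 in other T cells and 3 in NK cells, where 0.399%, 1.21%, 1.47%, 0.404% and 3.67% of gene pairs were.

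**Figure D4:**
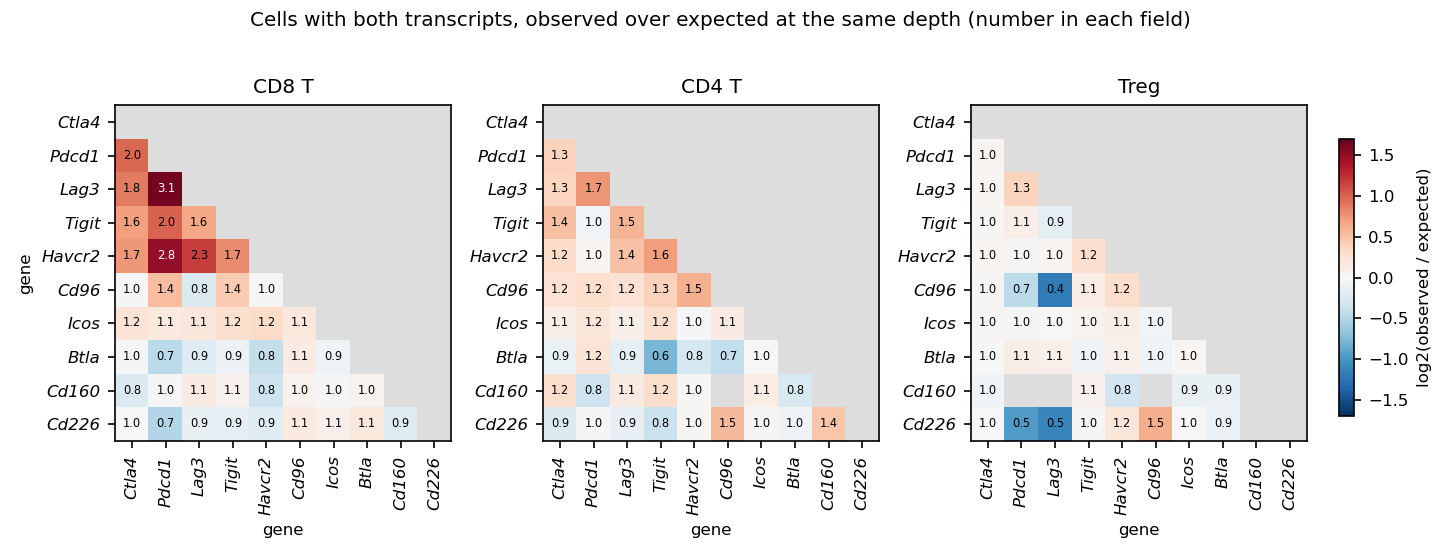
Cells with both transcripts of a pair, as observed over expected at the same depth (number in each field), with colour on a log2 scale, in CD8+ T cells, CD4+ T cells and Tregs. Grey fields below the diagonal are pairs with fewer than 5 expected cells. In CD8+ T cells the 10 highest ratios fill the corner of *Ctla4*, *Pdcd1*, *Lag3*, *Tigit* and *Havcr2*, up to 3.09.

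Interleukin 10 is the suppressive cytokine on which the study centres, and the T cells were split by whether they had an *Il10* UMI. In CD8+ T cells, 62 of 611 cells had 1, and their median depth of 10697 UMIs was near the 10779 UMIs of the others. Of the 10 receptors, 6 were at least 2-fold higher in the *Il10*+ cells, where 7.9% of 9917 genes were, and none was 2-fold lower, where 7.54% were. *Ctla4* stood at 693 CPM with and 119 CPM without *Il10*, a ratio of 5.82 (5.22 to 6.49). *Pdcd1* (55.2 and 10.2 CPM) had a ratio of 5.41 (3.63 to 8.00), *Havcr2* (253 and 53.3 CPM) of 4.74 (3.97 to 5.65), *Lag3* (71.2 and 17.4 CPM) of 4.09 (2.93 to 5.65), *Tigit* (54.0 and 18.0 CPM) of 3.00 (2.07 to 4.27) and *Cd96* (49.1 and 21.5 CPM) of 2.29 (1.57 to 3.27). *Icos* had a ratio of 1.45, *Btla* of 1.05, *Cd160* of 0.881 and *Cd226* of 0.617 (0.471 to 0.796). The 5 highest ratios thus belong to the receptors found together above, in the same cells.

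In the thinned CD8+ T cells, 66.1% of *Il10*+ cells (53.0 to 77.7) had 2 or more receptors, against 27.4% of the others (23.7 to 31.3). Within hashtags, *Ctla4*, *Lag3*, *Tigit* and *Havcr2* were higher in the *Il10*+ CD8+ T cells for all 4 hashtags, and *Pdcd1* for 3. In CD8+ T cells without a hashtag, *Tigit* was lower, at 24.1 against 27.1 CPM. Hashtag 9, which held 3 *Il10*+ cells and none of their *Pdcd1* UMIs, was the exception for *Pdcd1*. Its other directions also rest on few counts, with 3 *Ctla4*, 3 *Lag3*, 4 *Tigit* and 9 *Havcr2* UMIs in these 3 cells. For hashtag 11, *Tigit* rests on 4 UMIs in 10 *Il10*+ cells. The share of all genes that were higher for all 4 hashtags was not computed. For hashtag 12, *Ctla4* stood at 1270 CPM in 15 *Il10*+ cells and 124 CPM in 133 others, and for hashtag 11 at 214 CPM in 10 and 68.2 CPM in 153 cells.

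In 54 CD4+ T cells with *Il10* against 178 without, 2 receptors were at least 2-fold higher, where 3.93% of 8151 genes were, and none was 2-fold lower, where 7.26% were. *Ctla4* stood at 1054 and 295 CPM (ratio 3.57, 3.19 to 4.0) and *Lag3* at 72.8 and 32.6 CPM (2.23, 1.49 to 3.32). *Tigit* had a ratio of 1.99 (1.22 to 3.22), *Havcr2* of 1.88 (1.40 to 2.52), *Icos* of 1.52 and *Pdcd1* of 0.993 (0.625 to 1.54). *Btla* and *Cd226* had ratios of 0.630 and 0.606. Within each hashtag, *Ctla4* and *Lag3* were higher in the *Il10*+ cells, but by unlike amounts. *Ctla4* stood at 537 against 490 CPM for hashtag 10 (18 and 40 cells) and 859 against 84.8 CPM for hashtag 11 (10 and 64 cells). Hashtags 9 and 12 held 2 and 3 *Il10*+ cells. In cells without a hashtag, *Ctla4* stood at 1601.5 against 329 CPM (21 and 31 cells). The difference in ratio between CD8+ and CD4+ T cells was not tested. The CD4+ class leaves out only cells with a *Foxp3* UMI, and *Ikzf2* was seen in 37.1% of its cells. Tregs whose *Foxp3* was not captured cannot be told apart within it. The same holds for the CD8+ class and the other T cells, where *Ikzf2* was seen in 18.2% and 26.5% of cells.

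In Tregs, 57 cells with *Il10* stood against 176 without. No receptor was 2-fold higher, where 2.76% of 8950 genes were, and 2 were 2-fold lower, where 4.6% were. *Cd226* stood at 11.7 and 57.7 CPM (ratio 0.203, 0.0953 to 0.384) and *Cd96* at 7.03 and 24.1 CPM (0.292, 0.103 to 0.672). *Ctla4* stood at 2138 and 1394 CPM, a ratio of 1.53 (1.45 to 1.62), and *Btla* had a ratio of 0.508 (0.380 to 0.670). Within hashtags, *Ctla4* was higher in *Il10*+ Tregs for hashtags 9, 10 and 12. For hashtag 11 it was lower, at 849 against 965 CPM in 6 and 26 cells. In 103 other T cells with *Il10* against 1038 without, *Ctla4*, *Lag3*, *Havcr2* and *Pdcd1* were 4.19-fold, 3.25-fold, 2.38-fold and 2.03-fold higher, where 6.02% of 11028 genes were 2-fold higher, and *Cd226* and *Cd96* were lower (ratios 0.274 and 0.483), where 8.49% were. The split of the other T cells was not read within hashtags, and Tregs whose *Foxp3* was not captured cannot be told apart among them. Over all cells of a class, the *Cd226* ratio lay below 1 in the 4 T cell classes. Within hashtags *Cd226* was lower in *Il10*+ Tregs for all 4, which held 0, 0, 1 and 2 UMIs for hashtags 9 to 12. It was higher in *Il10*+ CD8+ T cells for hashtag 10 (122 against 77.4 CPM). In CD4+ T cells of hashtag 9, 2 *Il10*+ cells held 1 UMI and the 9 others 0. For hashtag 11 the CD4+ levels were close, at 75.55 CPM with and 74.37 CPM without *Il10*.

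**Figure D5:**
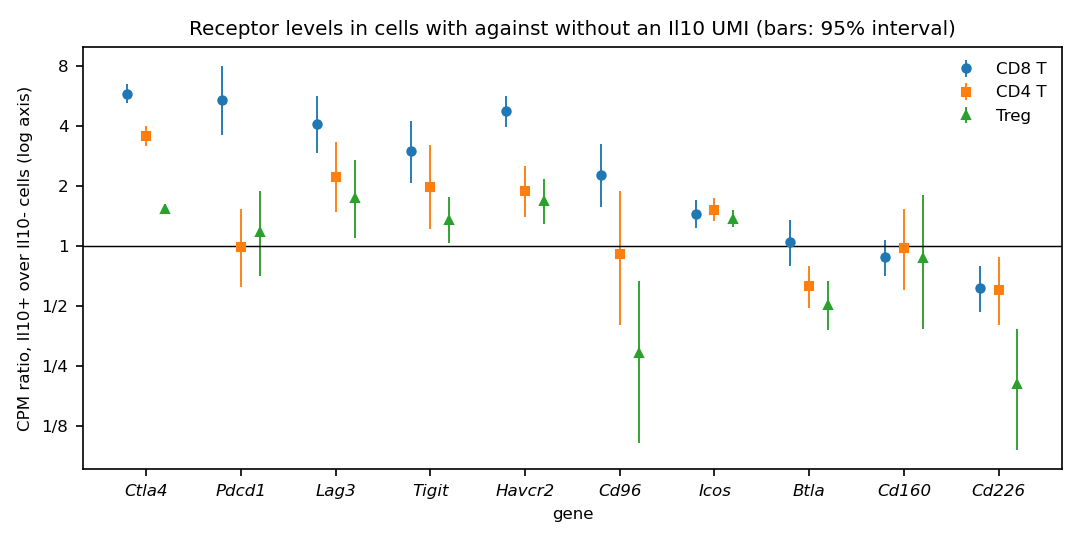
Ratio of the CPM of each receptor in cells with an *Il10* UMI to that in cells without (vertical axis, log scale) in CD8+ T cells, CD4+ T cells and Tregs, with 95% intervals as bars. The CD8+ ratios run from 5.82 for *Ctla4* to 0.617 for *Cd226*.

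Interferon gamma split the CD8+ T cells in another way. In 347 cells with *Ifng* against 264 without, 4 receptors were at least 2-fold higher, where 7.96% of genes were, and 1 was lower, where 1.69% were. *Havcr2* had a ratio of 3.34 (2.64 to 4.29), *Pdcd1* of 2.98 (1.79 to 5.24), *Tigit* of 2.86 (1.89 to 4.50) and *Cd160* of 2.00 (1.73 to 2.32). *Cd226* stood at 86.9 and 184 CPM (0.471, 0.413 to 0.538). *Ctla4* stood at 191 and 165 CPM (1.16, 1.04 to 1.30). The *Ifng*+ cells were deeper, with a median of 12482 against 9300 UMIs, and the share of cells with 2 or more receptors after thinning was 31.7% and 30.8%. In CD4+ T cells with *Ifng* (103 cells), *Havcr2* and *Cd160* were at least 2-fold higher, where 6.05% of genes were, and no receptor was 2-fold lower, where 2.81% were. In other T cells with *Ifng* (498 cells), *Cd160* was higher, where 3.66% of genes were, and *Btla* lower, where 4.26% were. The splits by *Ifng* were not read within hashtags. Over all CD8+ T cells, *Cd226* stood at 258 CPM for hashtag 12 and at 72.2 to 82.6 CPM for the others.

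Cells with and without a UMI of *Il2*, the T cell growth factor, differed in other receptors. In CD4+ T cells with *Il2* (93 cells), *Ctla4* stood at 263 CPM against 686 CPM without (0.383, 0.336 to 0.435) and *Cd226* at 106 against 54.4 CPM (1.95, 1.45 to 2.64). *Tigit* had a ratio of 0.419 there. In CD8+ T cells with *Il2* (174 cells), *Cd160* stood at 224 against 105 CPM (2.14, 1.90 to 2.42) and *Havcr2* at 45.8 against 88.9 CPM (0.515, 0.414 to 0.636). *Ctla4* went the other way than in CD4+ T cells, with ratios of 1.61 (1.44 to 1.79) in CD8+ and 2.02 (1.88 to 2.18) in other T cells, and *Cd226* had a ratio of 0.445 (0.347 to 0.565) in other T cells. In 22 CD4+ T cells with a UMI of *Il4*, *Il5* or *Il13*, the cytokines of allergic helper cells, *Ctla4* stood at 121 CPM, against 522 CPM in the other 210 (0.232, 0.159 to 0.327). The shares of thinned cells with *Ctla4* were closer, at 27.3% and 38.5%. Over all CD4+ T cells, the richest 5% held 44.7% of the *Ctla4* UMIs. In 64 other T cells with a UMI of these cytokines *Ctla4* stood at 421 against 265 CPM (1.59, 1.40 to 1.80). Ratios there were higher for *Havcr2* (3.83, 2.98 to 4.87), *Icos* (2.18), *Cd96* (2.15) and *Pdcd1* (1.73). They were below 1 for *Btla* (0.510), *Cd160* (0.550) and *Lag3* (0.716, 0.3385 to 1.34), and the interval of *Lag3* held 1. In only 10 CD8+ T cells with such a UMI, the *Ctla4* ratio was 0.958 (0.656 to 1.35), while the thinned shares with *Ctla4* were 30.0% with and 14.5% without these cytokines. *Tigit*, *Icos* and *Havcr2* had ratios of 2.50 (1.17 to 4.72), 2.37 (1.83 to 3.03) and 2.25 (1.51 to 3.23) there. *Lag3* and *Cd96* had ratios of 0.447 (0.0537 to 1.64) and 0.425 (0.0511 to 1.56), with wide intervals that held 1. In these splits, too, Tregs whose *Foxp3* was not captured cannot be told apart within the CD4+, CD8+ and other T cell classes. The splits were not read within hashtags, and the shares of all genes past 2-fold were not computed for them.

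Related genes were taken from lists of 15 further receptors, 12 ligands, 15 transcription factors and 8 signalling genes. In Tregs against CD4+ T cells, 7 of 14 receptors tested were at least 2-fold higher and none lower. Of all genes, 6.54% were higher and 3.74% lower, and the other lists below are to be read against the same shares. The median log2 ratio of these receptors was 0.83, against 0.089 for all genes. *Klrg1*, an inhibitory receptor for cadherins, was 8.94-fold, *Cd101* 4.27-fold, the costimulatory receptor *Tnfrsf9* 2.90-fold and *Tnfrsf18*, which encodes GITR, 2.53-fold higher. *Tnfrsf18* is also a Treg marker. Of 15 transcription factors, 4 were higher, led by *Ikzf4* at 5.39-fold and *Ikzf2* at 4.87-fold, and 4 were lower, among them *Tcf7*, a factor of naive and memory T cells, at 3.89-fold and *Nr4a1*, an early response gene, at 2.76-fold. Of 7 ligands 1 was higher, *Cd80* at 2.57-fold, and of 8 signalling genes 1 was lower.

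In CD8+ against CD4+ T cells, 8.49% of all genes were at least 2-fold lower and 3.96% higher. Here 4 of 14 receptors were lower and none higher, led by *Tnfrsf4*, which encodes OX40, at 14.6-fold. Of 15 transcription factors 4 were lower, with *Maf* at 11.2-fold and *Tox* at 3.80-fold, and *Eomes* was 2.69-fold higher. Of 7 ligands 1 was lower, and none of 8 signalling genes passed. In NK against CD8+ T cells, 18.7% of all genes were higher and 7.51% lower. Of 15 receptors, 6 were higher, led by *Cd244a*, an NK cell receptor, at 8.51-fold, and 6 lower, led by *Cd5* at 30.2-fold. Of 15 transcription factors 2 were higher and 4 lower, of 9 ligands 3 were higher, and of 8 signalling genes 3 were higher, with *Pik3r1* at 4.20-fold and *Ptpn6*, a phosphatase recruited by inhibitory receptors, at 2.54-fold.

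The genes closest to the receptors over the 8 classes were sought among 12404 genes by Pearson's r of log2(CPM + 1), as a description over classes that share 1 library. *Icos* was closest to *Tox* (r = 0.995), which stood at 1149 CPM in Tregs, 1103 CPM in CD4+ and 290.1 CPM in CD8+ T cells, and next to *Slc35g1*. *Ctla4* was closest to *Cpm* (0.990) and *Odc1*, and *Cd96* to *Cd27* (0.979) and *Kbtbd11*. *Havcr2* was closest to *Tnip3* (0.962), at 666 CPM in dendritic and 392 CPM in myeloid cells, and to *Crybg1*. The pairs for the others were *Trim32* and *Ptgfrn* for *Pdcd1*, *Alkbh4* and *Itpr2* for *Tigit*, *Sfpq* and *Pacsin1* for *Btla*, *Zglp1* and *Rab11fip3* for *Cd160*, and *Eid2* and *Hdgfl3* for *Cd226*, with r between 0.970 and 0.989. Pearson's r does not weigh the size of the differences between classes. *Sfpq* stood between 290 and 356 CPM in all 8 classes, where *Btla* ran from 7.75 to 199 CPM. *Alkbh4* was low throughout, between 2.00 and 4.73 CPM.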

How the data were processed

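Per the labels, 10x Genomics Chromium Single Cell gene expression and hashtag libraries were made from 1 pool. The deposited values are UMI counts per gene and barcode, made by the authors with Cell Ranger (7.2.0 in the labels, 7.0.0 in the header of the matrix) on GRCm38/mm10. The submitters' processing notes also name FastQC and Seurat. Raw reads were not analysed here.

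The cell filter asked for 200 genes or more and no more than 10% of UMIs from mitochondrial genes. Classes followed from UMIs of marker genes without clustering. T cells needed 2 UMIs of *Cd3d*, *Cd3e*, *Cd3g* and *Trac*, NK cells 2 of *Ncr1* and *Klre1* with *Cd3d* and *Cd3e* at 0, B cells 2 of *Cd79a* and *Ms4a1*, myeloid cells 3 of *Lyz2* and *Csf1r*, and dendritic cells 2 of *Flt3*, *Zbtb46*, *Xcr1* and *Clec9a*. The 234 cells that met 2 rules were left out, which was the only step against doublets. As an alternative, Scrublet (scanpy 1.11.5, expected rate 0.1) marked 1304 cells. Medians per class were between 5571 and 11642 UMIs. A hashtag was called where its count over its median across cells was at least 3 times that of the next, which held for 7172 cells. Cells with fewer than 2000 UMIs were left out of thinned shares, between 1 and 57 per class.

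CPM were summed over the cells of a class. Intervals (95%) are exact Poisson for levels, exact binomial for ratios of levels and Clopper-Pearson for shares, and cover counting error only. A fold was counted from 2 in genes with at least 20 UMIs. On simulated Tregs against CD4+ T cells, 200 of 200 genes changed 4-fold were recovered and 46 others were called among 10037. The changed genes had at least 100 UMIs and were drawn without spread between cells. The simulation therefore does not cover receptors with fewer UMIs or smaller folds. The members and the gene lists were chosen with earlier results of these data known. Named genes were the 10 receptors, the 2 genes most like each with at least 100 UMIs (for *Lag3* not reported here), and from each list at most 4 past the fold. *Eomes* was named beside this rule, after its value was seen. The alternatives were stricter cells, no doublets, a ribosomal limit of 60%, the T cell score for Tregs only, 2 UMIs of the defining gene, the mean over cells, a fold of 1.5, expected pairs without depth groups, thinning to 1000 UMIs and each hashtag left out. Added after seeing the data were T cells without *Ncr1* or *Klre1*, B cells without T cell genes, the richest cell left out and expected pairs within hashtags. Python 3.11.15, NumPy 2.4.6, SciPy 1.17.1 and matplotlib 3.10.9 were used. The therapies were not compared, as 4 hashtags are not matched to 3 conditions.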

Additional observations from a re-analysis of the deposited data

How the results depend on the processing

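No alternative turned the direction of a receptor that passed 2-fold between classes. The ratios of single receptors in cells split by a cytokine were not rerun under the alternatives. The number of receptors lower in Tregs than in CD4+ T cells, 1 as reported, became 3 with at least 2 UMIs of the defining gene (*Cd160*, *Pdcd1* and *Cd226*), 2 without hashtag 11 (*Cd160* and *Pdcd1*) and 5 at a fold of 1.5. The number higher in CD8+ than in CD4+ T cells, 1 as reported, became 2 with the mean over cells (*Cd160* and *Cd226*) and 2 at a fold of 1.5. Pairs found together at 1.5 times the expected number fell from 10 to 5 in CD8+ T cells, from 3 to 1 in CD4+ T cells, from 1 to 0 in Tregs and from 6 to 0 in NK cells when cells were thinned to 2000 UMIs, which leaves fewer pairs with 5 expected cells (21, 17, 16 and 7). In CD8+ T cells the ratios of 5 pairs, among them *Pdcd1* and *Lag3*, were followed through the alternatives. All 5 moved past their counting interval on this thinning, and none did in the other alternatives run for them. Without depth groups, 6 pairs passed in CD4+ T cells and 19 in NK cells. Within hashtags 1 passed in CD4+ T cells, and in Tregs without NK markers 0 passed. The shares of all genes or gene pairs were not computed for these alternatives, apart from the fold of 1.5. The share of cells with 2 or more receptors moved with depth, from 97.9% at full depth to 49.4% at 1000 UMIs in Tregs, 83.2% to 24.1% in CD4+ T cells, 80.4% to 15.1% in CD8+ T cells and 14.7% to 0.887% in NK cells, in the same order of classes. At full depth it was 93.6% in *Il10*+ and 78.9% in other CD8+ T cells. Of the single levels, 147 moved past their counting interval and 563 did not, as did 55 and 275 of the log2 ratios. These totals include the ribosomal limit, which left out no cell of a class and so could move nothing. The stricter cells and the T cell score for Tregs only moved no level either. With the mean over cells, 35 levels moved and 25 did not, as did 15 and 15 of the log2 ratios. Without Scrublet doublets, 22 levels moved and 38 did not. *Pdcd1* and *Lag3*, with under 120 UMIs each in Tregs and CD4+ T cells, are limited by depth. Which mice and which condition belong to a hashtag is not given in the sources used here, so the spread between mice was not measured.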
